A study of Homo sapiens with 4 samples.

Results

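The 30 genes described here are a fixed set of G2/M and mitosis genes, whose products carry a cell from the end of DNA replication through chromosome segregation and division. They were chosen by symbol, all 30 were found in the deposited table of 60623 genes, and all 30 passed the filter on low counts, as did 14810 genes in all. RNA was sequenced from T24, an established human bladder cancer line, in 4 libraries. The study's description says that cells were given either a scramble control or a mimic of miR-146a-5p, a microRNA described there as a tumor suppressor, and the labels call the latter group overexpressing. Each group has 2 libraries, called replicates 1 and 2, and no other allele, drug or time point is named for either group. The labels leave unsaid whether the replicates are separate cultures. The p-values below therefore reflect the spread between these libraries alone, and that spread may be technical.

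Entry into mitosis is driven by CDK1 bound to cyclins, helped by the CDC25 phosphatases and the Polo and Aurora kinases. The spindle checkpoint then holds back the anaphase-promoting complex (APC/C), a ubiquitin ligase, until every chromosome is attached to the spindle. Most of these genes are transcribed late in the cell cycle, through promoters that carry a cell cycle homology region (CHR) and CCAAT boxes bound by NF-Y, with FOXM1 joining the machinery in G2, so their summed RNA in a culture is widely read as a sign of proliferation.

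Sequences from the RefSeq tables on GRCh38.p14 show these elements, and the microRNA that was given. Its mature form lies at chr5:160485372-160485393 on the plus strand, and the capitals mark its seed, bases 2 to 8.
miR-146a-5p: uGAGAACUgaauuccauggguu
A match to the seed was looked for in the 3′ UTR of the longest coding transcript of each member in GENCODE 29 on GRCh38. Of the 30 members, 5 held at least 1 match of 7 or 8 bases (16.7%), against 21.0% of 12345 tested genes. The median 3′ UTR was 746.5 bases long in the members and 1327 in the tested genes. The only member with an 8-mer was MAD2L1, a spindle checkpoint protein, at chr4:120059031-120059038 on the minus strand, in its 3′ UTR, and the capitals mark the match.
MAD2L1: ctttctatccAGTTCTCAcctgtttttc
CCNA2, CDK1, KIF2C and MKI67 held a 7-base match, GTTCTCA, and MAD2L1 held 1 more of these.

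The RefSeq promoter table, with 250 bases before and 50 after a start, held 24 of the members. It has no entry for AURKA, BIRC5, FOXM1, TPX2, TTK or UBE2C. A CHR-type match, TTTGAA or TTCGAA on either strand, was present in 17 of the 24 (70.8%), against 19.5% of all 27305 genes in the table. A CCAAT match on either strand was present in 21 (87.5%), against 39.7%. Both stood in 1 promoter for 16 members (66.7%), against 7.85% of all genes. A forkhead match, GTAAACA on either strand, was present in 1 member (4.17%), against 4.19%. Among the 10401 tested genes with an entry, the share was 15.5% for CHR and 43.1% for CCAAT. It was 6.48% for both and 3.59% for forkhead. Among the members with a CHR match, the stretches below belong to those with the 2 highest and the 2 lowest fold changes over the 4 libraries. Each runs over the 200 bases before the start, and capitals mark CHR and CCAAT matches on either strand, some of which overlap.
HMMR, chr5:163460432-163460631, plus strand: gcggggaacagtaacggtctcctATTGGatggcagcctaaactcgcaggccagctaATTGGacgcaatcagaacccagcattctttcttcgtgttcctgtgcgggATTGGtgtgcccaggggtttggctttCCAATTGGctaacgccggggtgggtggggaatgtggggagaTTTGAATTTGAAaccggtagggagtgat
TOP2A, chr17:40417897-40418096, minus strand: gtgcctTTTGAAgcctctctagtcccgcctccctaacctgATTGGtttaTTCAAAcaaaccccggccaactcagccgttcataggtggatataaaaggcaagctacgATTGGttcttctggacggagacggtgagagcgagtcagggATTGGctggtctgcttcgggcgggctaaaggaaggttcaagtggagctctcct
PLK1, chr16:23678689-23678888, plus strand: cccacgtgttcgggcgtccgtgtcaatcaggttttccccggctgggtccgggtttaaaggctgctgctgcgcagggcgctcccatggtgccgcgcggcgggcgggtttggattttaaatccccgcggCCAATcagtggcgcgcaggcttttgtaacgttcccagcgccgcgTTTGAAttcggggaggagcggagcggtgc
CDC25B, chr20:3796110-3796309, plus strand: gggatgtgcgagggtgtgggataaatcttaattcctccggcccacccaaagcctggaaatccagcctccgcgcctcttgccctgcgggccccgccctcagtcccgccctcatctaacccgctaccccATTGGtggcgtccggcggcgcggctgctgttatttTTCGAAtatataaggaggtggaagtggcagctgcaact
HMMR carried 2 CHR and 5 CCAAT matches in this window, TOP2A carried 2 and 3, and PLK1 and CDC25B carried 1 of each. A relation between the number of matches and the fold change was not tested, and these stretches come from the ends of the ranking alone. These are matches of letters, and the data hold no measurement of binding.

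The libraries held between 20290055 and 22774090 estimated counts each, and members were read as CPM, their counts scaled to that total. The deposited count of a member ranged from 393, for CENPE in scramble replicate 2, to 15811, for TPX2 in miR-146a-5p replicate 1. Scramble replicate 2 stood apart: the log2 CPM of the scramble libraries had a Pearson correlation of 0.925 over tested genes, and that of the miR-146a-5p libraries 0.989, while scramble replicate 1 reached 0.979 and 0.981 with them. Genes are not independent replicates, and these correlations are descriptions. Epithelial keratins KRT7, KRT8 and KRT18 made up almost all of the urothelial and epithelial marker sum, which lay between 3706 and 5646 CPM, and 6 of the 13 markers passed the filter. KRT5 and UPK3A were at 0 in all libraries, and CDH1, KRT20, UPK1A, UPK1B and UPK2 reached at most 0.13 CPM. Fibroblast markers summed to at most 6.75 CPM, leukocyte markers to at most 1.84, with CD3E and MS4A1 at 0 throughout, and endothelial markers to at most 0.591. IRAK1, a well known target of this microRNA, was at 498 and 716 CPM with scramble and 108 and 109 with miR-146a-5p, and its adjusted p was 0.728 by edgeR and 5.03e-09 by DESeq2.

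Over all 4 libraries no member passed the test at an adjusted p of 0.05. The edgeR quasi-likelihood test called 0 of 14810 genes (0.00%) and 0 of 30 members, and DESeq2 called 52 of 16044 genes (0.324%) and 0 members. At an unadjusted p under 0.05, 0 members passed by edgeR, whose p ran from 0.0818 to 0.957, beside 549 of 14810 tested genes. By DESeq2 0 members passed, with a lowest unadjusted p of 0.0839, beside 389 of the same genes. Limma-voom called 0 members. The fitted log2 fold change of miR-146a-5p over scramble was positive for 23 members and negative for 7, beside 7385 and 7425 of all tested genes. Its median was 0.28, beside -0.0014 for all tested genes. In bulk RNA a different share of cells in G2 or mitosis and a different amount of RNA per such cell cannot be told apart.

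**Figure D1:**
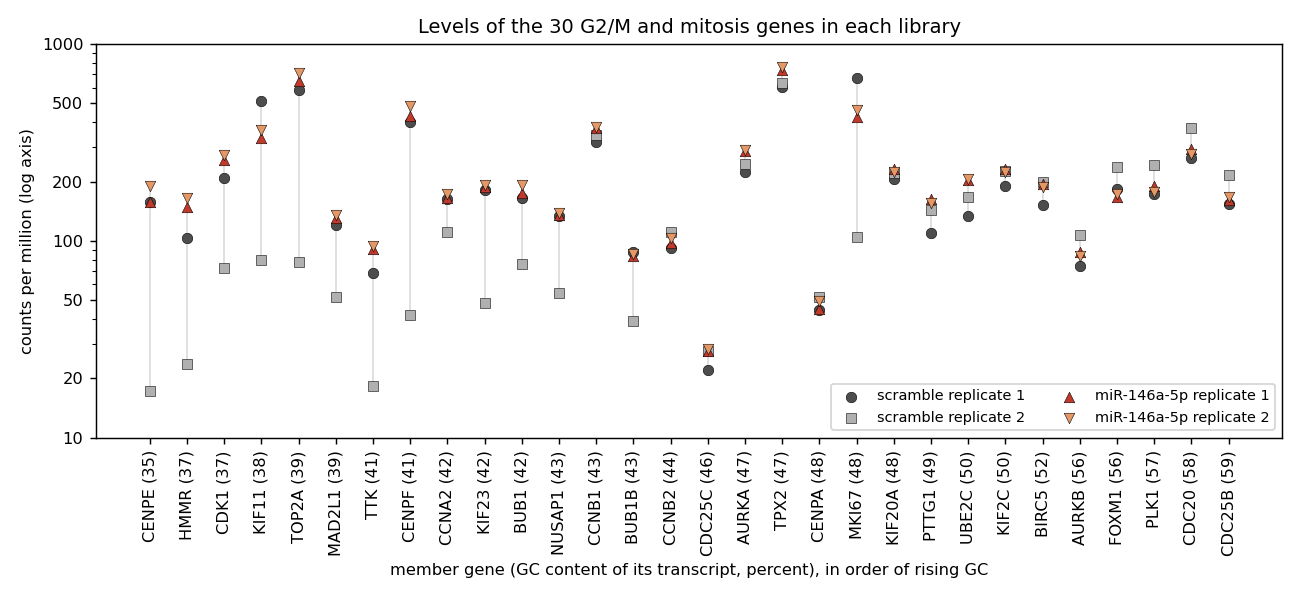
CPM of each of the 30 genes (log axis) in the 4 libraries, 1 point per library, with the genes ordered by the GC content of their transcripts. At the left, scramble replicate 2 lies far below the other 3 libraries (CENPF at 42.1 against 403, 428 and 486), and at the right it lies above them (CDC20 at 375 against 265, 292 and 275).

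For many members the scramble libraries lay far apart, while the miR-146a-5p libraries lay close together. For 13 of the 30 (43.3%), CPM was between 2.16 and 9.57 times higher in scramble replicate 1 than in replicate 2. No member differed by over 2-fold between the miR-146a-5p libraries, where the most was 1.20-fold. Few genes did so at all, 124 of 14810 tested. The 13 were BUB1, BUB1B, MAD2L1, NUSAP1, CDK1, TTK, KIF23, HMMR, MKI67, KIF11, TOP2A, CENPE and CENPF. Among all tested genes, 18.3% were over 2-fold higher in scramble replicate 1 than in replicate 2. The standard error of the log2 fold change was between 0.41 and 1.04 in the 13, and between 0.13 and 0.25 in the other 17. Both miR-146a-5p libraries were above both scramble libraries for 18 members, an arrangement that 18.0% of tested genes showed, and below both for 1, FOXM1, which 18.0% of tested genes showed as well. For 10 members both lay between the scramble libraries, as for 39.0% of tested genes, and KIF2C overlapped them.

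Each scramble library was therefore also taken on its own against both miR-146a-5p libraries, with edgeR, which assumes that the lone scramble library varied as the treated pair did. The pairs did not vary alike: edgeR's common coefficient of variation between libraries was 0.484 in the scramble pair and 0.0616 in the miR-146a-5p pair. Standard errors and adjusted p-values of these fits rest on the miR-146a-5p spread. They leave out the spread between the scramble libraries, so the calls below are descriptions. These fits treat a group of 1 library as if its spread were known, and they share the miR-146a-5p libraries. Against scramble replicate 1, 11 members (36.7%) were called higher, beside 10.1% of 15373 genes, and 2 (6.67%) lower, beside 11.7%. Against scramble replicate 2, 17 members (56.7%) were called higher, beside 28.5% of 15333 genes, and 5 (16.7%) lower, beside 26.4%. AURKA, TPX2, UBE2C, CDK1, TTK and HMMR were called higher in each fit. KIF11 and MKI67 were called lower against the first scramble library and higher against the second. How many of all tested genes were called higher in each fit, or in opposite directions, was not counted. These overlaps between the fits are therefore descriptions. On GRCh38 (GENCODE 29), KIF11 lies at chr10:92593286-92655395 on the plus strand and MKI67 at chr10:128096659-128126385 on the minus strand. Of the members called higher in each fit, HMMR lies at chr5:163460203-163491945 and UBE2C at chr20:45812576-45816957, both on the plus strand. The log2 fold changes of called members ran from 0.26 to 0.63 upward against replicate 1, and from 0.22 to 3.44 against replicate 2.

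**Figure D2:**
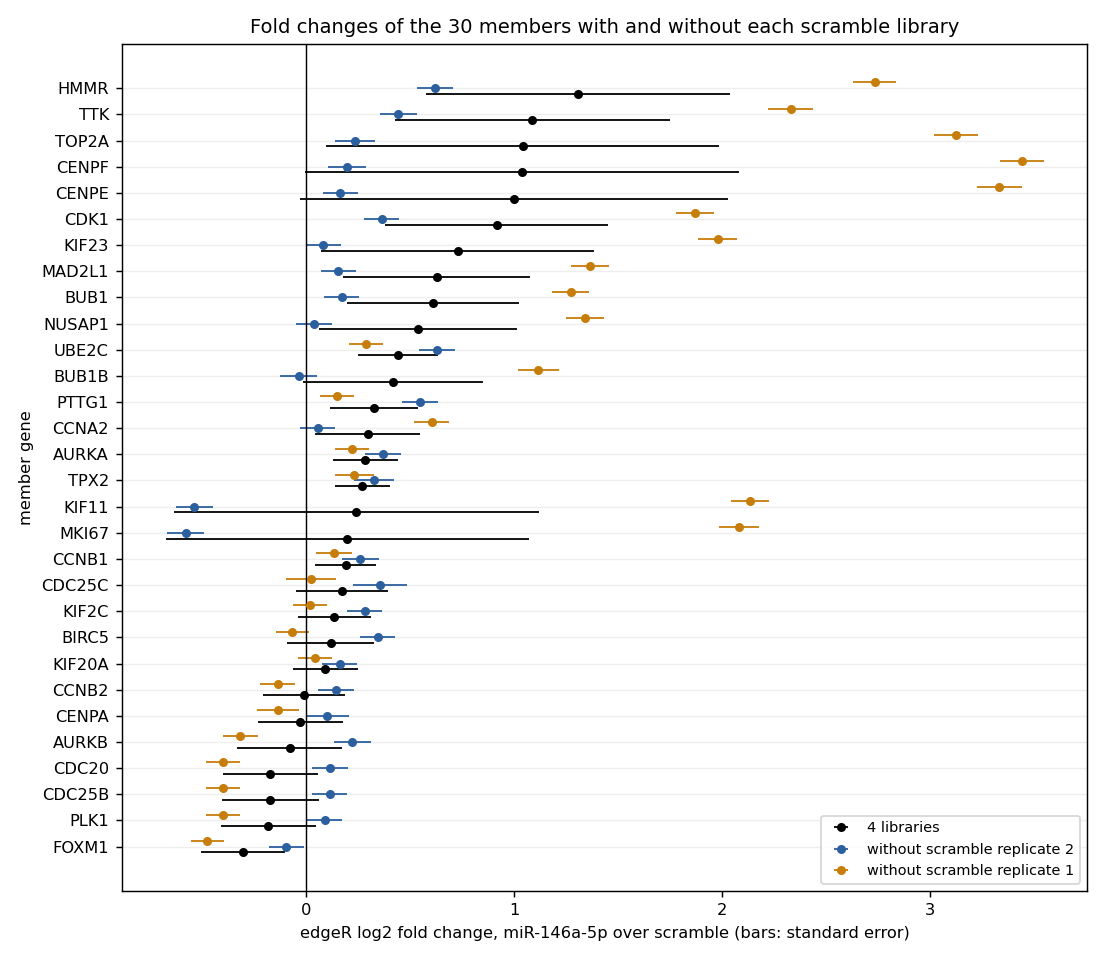
The edgeR log2 fold change of miR-146a-5p over scramble for each gene, with bars for its standard error, from all 4 libraries and with each scramble library left out. KIF11 and MKI67 have opposite signs in the fits that leave out 1 scramble library (-0.54 and 2.14 for KIF11), while AURKA stays between 0.22 and 0.37 in all 3 fits.

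Among the cyclins, CDK1 and its activators, CCNB1 encodes cyclin B1, the partner of CDK1 at mitotic entry. Its CPM was 317 and 343 with scramble (replicates 1 and 2, the order used throughout), and 375 and 377 with miR-146a-5p. Both miR-146a-5p libraries were above both scramble libraries, and the 4-library log2 fold change was 0.19 ± 0.15 (SE, edgeR unadjusted p = 0.267). CCNB1 was called higher against scramble replicate 1 (0.26 ± 0.09, edgeR adjusted p = 0.0196) and not against replicate 2 (0.13, adjusted p = 0.18), and with offsets for GC content and length its 4-library value turned to -0.046. CDK1 itself was at 208 and 72.7 CPM with scramble and at 256 and 274 with miR-146a-5p. Scramble replicate 2 was low and the other 3 libraries were higher. The CDK1 log2 fold change was 0.92 ± 0.54 over 4 libraries, 0.36 ± 0.08 against scramble replicate 1 (edgeR adjusted p = 0.000217) and 1.87 ± 0.09 against replicate 2 (1.52e-90).

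CCNA2, cyclin A2, was at 164 and 111 CPM with scramble and 165 and 172 with miR-146a-5p. It was level with scramble replicate 1, at a log2 fold change of 0.05 (edgeR adjusted p = 0.714), and above replicate 2 at 0.60 (8.27e-12). CCNB2, cyclin B2, was at 91.5 and 110.3 CPM with scramble and 96.9 and 103 with miR-146a-5p, between the scramble libraries. CDC25B and CDC25C encode phosphatases that activate CDK1. CDC25B was at 153 and 217 CPM with scramble and 161 and 167 with miR-146a-5p, with a log2 fold change of 0.11 against replicate 1 (edgeR adjusted p = 0.378) and a lower call against replicate 2 (-0.40, 2.29e-06). CDC25C was at 22.02 and 27.5 CPM with scramble and 27.7 and 28.1 with miR-146a-5p. It was called higher against replicate 1 (0.35 ± 0.13, edgeR adjusted p = 0.0319) and was at 0.02 against replicate 2 (0.905). The difference between the fits was not tested for any member.

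FOXM1, the forkhead factor that activates G2/M genes, was the 1 member below both scramble libraries in both miR-146a-5p libraries. It was at 183 and 236 CPM with scramble and 167 and 173 with miR-146a-5p. The fold change was -0.31 ± 0.20 on the log2 scale over 4 libraries (edgeR unadjusted p = 0.198). It was called lower against replicate 2 (-0.48, edgeR adjusted p = 1.4e-08) but not against replicate 1 (-0.10, adjusted p = 0.46).

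Of the mitotic kinases, AURKA, the Aurora kinase of centrosomes and spindle poles, was at 224 and 246 CPM with scramble and 285 and 288 with miR-146a-5p. It was higher than both scramble libraries, and was called in both single-scramble fits (0.37 and 0.22 on the log2 scale, edgeR adjusted p = 0.000189 and 0.0167). AURKB, the Aurora kinase of the chromosomal passenger complex, was at 74.2 and 107 CPM with scramble and 87.4 and 84.1 with miR-146a-5p. PLK1, the Polo kinase, was at 174 and 242 CPM with scramble and 189 and 177 with miR-146a-5p. Both lay between the scramble libraries, at 0.22 and 0.088 on the log2 scale against replicate 1 (edgeR adjusted p = 0.0601 and 0.514). Both were called lower against replicate 2 (-0.32 and -0.40, adjusted p = 0.000539 and 2.23e-06), and AURKB was at 0.043 over 4 libraries with the offsets for GC content and length described below.

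The 4 spindle checkpoint genes shared 1 shape, with scramble replicate 2 low and the other 3 libraries close together or somewhat higher. Members of other roles, such as CDK1, KIF23, NUSAP1 and TOP2A, had this shape as well. TTK, the kinase that starts the checkpoint signal, was at 68.4 and 18.4 CPM with scramble and 90.5 and 93.9 with miR-146a-5p. It was called higher in both single-scramble fits, at 0.44 ± 0.09 against replicate 1 (edgeR adjusted p = 1.71e-05) and 2.33 against replicate 2 (3.72e-97). BUB1, a kinetochore kinase, was at 164 and 76.1 CPM with scramble and 175 and 192 with miR-146a-5p. BUB1B, which encodes the checkpoint inhibitor BubR1, was at 87.6 and 39.1 CPM with scramble and 83.5 and 85.8 with miR-146a-5p. The last of the group, MAD2L1, whose 8-mer seed match is printed above, was at 120.4 and 51.6 CPM with scramble and 130.2 and 136 with miR-146a-5p. It was not lower with miR-146a-5p in either comparison (0.15 against replicate 1, edgeR adjusted p = 0.201, and 1.36 against replicate 2, 6.68e-48). BUB1 and BUB1B were likewise called higher against replicate 2 only (1.27 and 1.11).

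Among the APC/C genes, UBE2C, the ubiquitin-conjugating enzyme that works with the complex, had the lowest unadjusted edgeR p of the 30, and HMMR the lowest by DESeq2. UBE2C was at 133 and 168 CPM with scramble and 203 and 206 with miR-146a-5p, or 151 ± 24.4 against 205 ± 2.65 (mean ± SD, n = 2 each). Both miR-146a-5p libraries exceeded both scramble libraries, with a log2 fold change of 0.44 ± 0.19 (edgeR unadjusted p = 0.0818, adjusted p = 0.970). It was called higher against each scramble library alone, at 0.63 ± 0.09 (adjusted p = 1.44e-11) and 0.29 (0.00138). PTTG1, securin, the inhibitor of separase that the APC/C removes, was at 109.7 and 143.6 CPM with scramble and 163 and 155 with miR-146a-5p. It was called higher against replicate 1 only (0.54, edgeR adjusted p = 9.98e-09). CDC20, an activator of the APC/C, was at 265 and 375 CPM with scramble and 292 and 275 with miR-146a-5p, between the scramble libraries, and was called lower against replicate 2 (-0.40, adjusted p = 4.28e-06).

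The widest gap between the scramble libraries was in the centromere and kinetochore genes. CENPF, a large protein of the outer kinetochore, was at 403 and 42.1 CPM with scramble and 428 and 486 with miR-146a-5p. Scramble replicate 1 was close to the miR-146a-5p libraries, 1.13-fold below their mean, and replicate 2 was 10.9-fold below it. CENPE, a kinesin motor that moves chromosomes to the spindle equator, was at 157 and 17.3 CPM with scramble and 158 and 189.7 with miR-146a-5p. Neither was called against replicate 1 (edgeR adjusted p = 0.119 and 0.168), and both were called higher against replicate 2 (3.44 and 3.33 on the log2 scale). CENPA, the histone H3 variant of centromeres, was at 44.3 and 51.7 CPM with scramble and 44.9 and 49.3 with miR-146a-5p, and was called in neither fit (adjusted p = 0.557 and 0.26).

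Of the 4 kinesins, KIF11, the motor that pushes spindle poles apart, was at 512 and 79.6 CPM with scramble and 333 and 366 with miR-146a-5p. It lay between 2 scramble libraries that were themselves 6.43-fold apart, so its direction differed with the library it was set against: -0.54 ± 0.09 against replicate 1 (edgeR adjusted p = 2.65e-08) and 2.14 against replicate 2 (2.48e-115). KIF23, a motor of the central spindle, was at 181 and 48.2 CPM with scramble and 188 and 192 with miR-146a-5p. KIF20A, which acts in cytokinesis, was at 205 and 221 CPM with scramble and 231 and 223 with miR-146a-5p, and was called in neither fit. KIF2C, which removes tubulin from microtubule ends, was at 189 and 226 CPM with scramble and 232 and 223 with miR-146a-5p, and was called higher against replicate 1 (0.28, adjusted p = 0.00647).

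**Figure D3:**
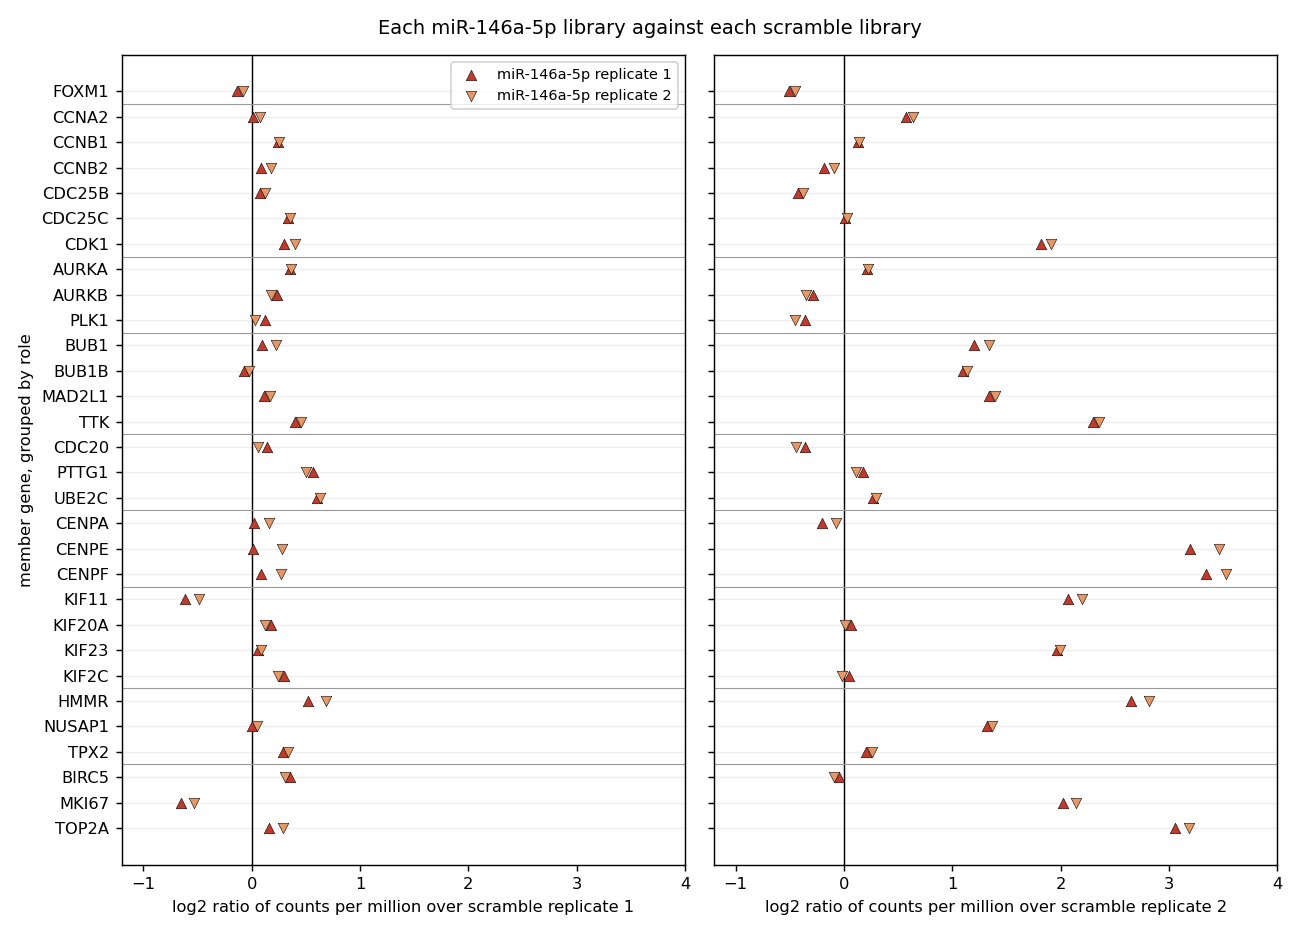
The log2 ratio of CPM of each miR-146a-5p library over scramble replicate 1 (left) and over scramble replicate 2 (right), 2 points per gene, with genes grouped by role. Points on the left lie between -0.65 (MKI67) and 0.69 (HMMR), while CENPE, CENPF and TOP2A on the right stand above 3.

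Among spindle-binding proteins, HMMR, which binds microtubules and hyaluronan, had the largest 4-library fold change of the 30 in the main edgeR test, though CENPF was larger by limma-voom (1.81 against 1.67) and with GC and length offsets, and CENPE on log2(TPM + 1) (1.66 against 1.48). HMMR was at 103 and 23.5 CPM with scramble and 148 and 166 with miR-146a-5p, or 63.2 ± 56.1 against 157 ± 12.6 (mean ± SD, n = 2 each). The scramble SD was close to the scramble mean, and the log2 fold change was 1.31 ± 0.73 (edgeR unadjusted p = 0.145). It was 0.62 ± 0.09 against replicate 1 (adjusted p = 6.32e-11) and 2.73 against replicate 2 (1.18e-149). TPX2, which activates AURKA on the spindle, was at 602 and 637 CPM with scramble and 734 and 760.0 with miR-146a-5p. Its scramble libraries were close, and both fits called it higher (0.32, edgeR adjusted p = 0.00555, and 0.23, 0.0274). NUSAP1, which bundles microtubules, was at 134 and 54.0 CPM with scramble and 135 and 139 with miR-146a-5p, level with scramble replicate 1 at a log2 fold change of 0.04.

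Of the chromosome genes, MKI67, which encodes the proliferation marker Ki-67, is a further case of opposite calls. Its CPM was 669.8 and 105 with scramble and 426 and 463 with miR-146a-5p. It lay between the scramble libraries, at -0.58 ± 0.09 against replicate 1 (edgeR adjusted p = 5.01e-09) and 2.08 against replicate 2 (4.08e-103). TOP2A, the topoisomerase that untangles sister DNA, was at 584 and 78.2 CPM with scramble and 651 and 712 with miR-146a-5p, and was not called against replicate 1 (0.23, adjusted p = 0.0592). BIRC5, survivin, a subunit of the passenger complex, was at 152 and 199.9 CPM with scramble and 194 and 187 with miR-146a-5p. It was called higher against replicate 1 (0.34, adjusted p = 0.000615) and was at -0.07 against replicate 2 (0.506).

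Levels of different genes can be compared only per length, for which the authors' TPM was used. By mean TPM over the 4 libraries, UBE2C was the highest member at 412, then PTTG1 at 366 and CCNB1 at 333. The lowest were BUB1B at 27.9, CENPE at 20.9 and CDC25C at 19.4. CENPE ran from 2.38 TPM in scramble replicate 2 to 28.4 in miR-146a-5p replicate 1, and CDC25C from 17.4 to 20.9 TPM. CENPE was below CDC25C in scramble replicate 2 alone, and lay between CDC25C and BUB1B in every other library.

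The gap between the scramble libraries went with the base composition of the transcripts. GC content of the longest coding transcript (GENCODE 29) had a median of 48.3% over tested genes, and 20 members lay below it. In those 20 the median log2 ratio of scramble replicate 2 over replicate 1 was -1.26, and in the 10 others it was 0.39. Across the 30 members, GC content and this ratio had Pearson's r of 0.76 and Spearman's rho of 0.87, and rho was 0.78 over 14679 tested genes. Transcript length (log2) and the ratio had r of -0.75 over the members. These points share the same libraries, and how far base composition and length go together in them was not measured. The correlations are therefore descriptions. In the fifth of tested genes with the lowest GC content the median ratio was -1.36, and in the highest it was 0.50. From the lowest to the highest GC class of equal size, the members numbered 8, 7, 9, 5 and 1.

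The GC content of a member also went with its 4-library log2 fold change (r = -0.83, rho = -0.84, n = 30), and had r of -0.04 and rho of -0.09 with its ratio to scramble replicate 1. Over 14679 tested genes the latter rho was 0.27. The median log2 ratio to scramble replicate 1 was 0.16 in the 20 members of lower GC content and 0.18 in the 10 others. Against replicate 2 the medians were 1.34 and -0.19. Offsets then removed each library's smooth trend with GC content and length. With them the median log2 fold change of the 30 was 0.22 and 23 were positive. The median over all genes was -0.05, and 6430 of 14679 were positive. CENPF stood at 1.09 there, HMMR at 0.97, CDK1 at 0.46 and UBE2C at 0.49, and no member was called (lowest edgeR adjusted p = 0.282). A correlation with GC content remained among the members after the offsets (r = -0.63). The scramble libraries also stayed apart. The median log2 ratio of replicate 2 over replicate 1 was then -0.45 in the 20 members of lower GC content and 0.045 in the 10 others. It had r of -0.73 with transcript length (log2) over the members. For CENPF it was -1.76, and its log2 ratio of miR-146a-5p was 0.46 to scramble replicate 1 and 2.22 to replicate 2. The part of RNA quality or library preparation in the state of scramble replicate 2 was not tested.

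**Figure D4:**
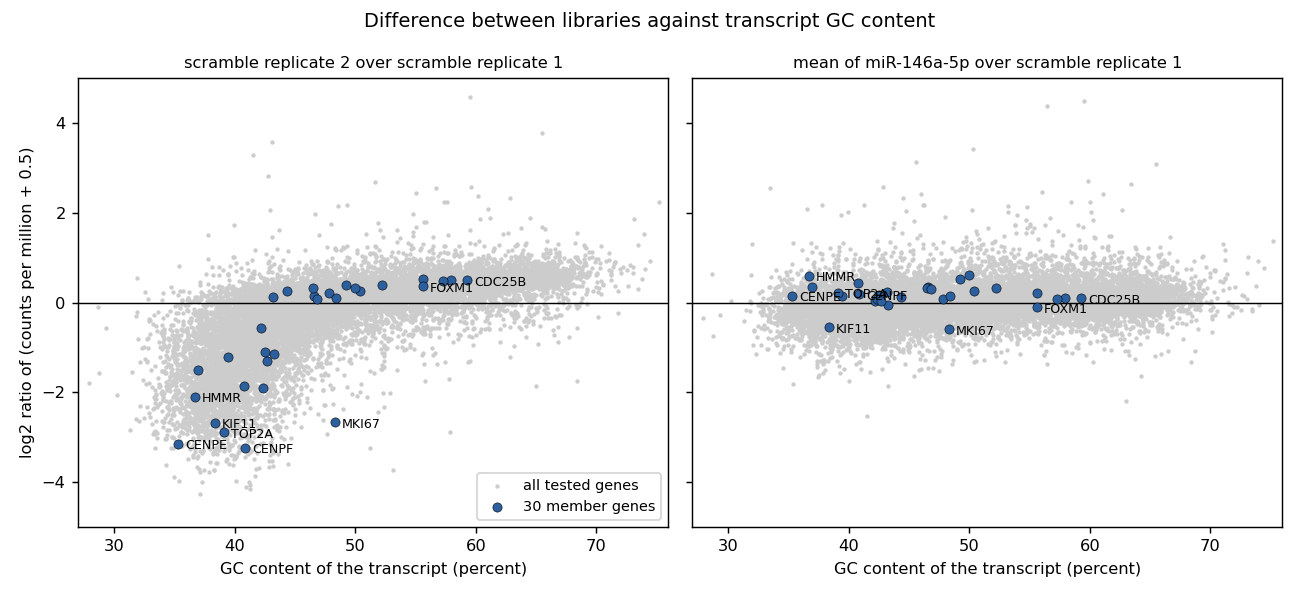
Log2 ratios between libraries of each tested gene (small points) and each of the 30 genes (large points) against the GC content of the transcript in percent. The ratio of scramble replicate 2 over replicate 1 climbs with GC content (rho = 0.87 over the 30), and the ratio of miR-146a-5p over scramble replicate 1 shows little slope among the 30 (rho = -0.09).

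Another 112 genes of mitosis, listed by role, were read from the same fit. All 112 were tested and 0 were called by edgeR or DESeq2. At an unadjusted edgeR p under 0.05 there were 0, beside 549 of 14810 tested genes. Their median log2 fold change was 0.25, but it was 0.10 with GC and length offsets and 0.11 without scramble replicate 2. Of the 112 values, 79 were positive and 33 negative, beside 7385 and 7425 of all tested genes. In scramble replicate 1, 43 of the 112 (38.4%) were over 2-fold above scramble replicate 2. Both miR-146a-5p libraries were above both scramble libraries for 43 (38.4%) and below both for 4 (3.57%), beside 18.0% of tested genes each. Against scramble replicate 1 alone, edgeR called 24 higher (21.4%, beside 10.1% of all genes) and 10 lower (8.93%, beside 11.7%). Against replicate 2 alone it called 67 higher (59.8%, beside 28.5%) and 24 lower (21.4%, beside 26.4%). From each of the 8 role groups the gene with the lowest unadjusted p is named here, a choice that favours genes whose groups lie apart. MELK, a mitotic kinase, was at 159.8 and 118 CPM with scramble and 192 and 206 with miR-146a-5p. WEE1, which holds CDK1 inactive, was at 33.2 and 33.5 CPM with scramble and 42.7 and 47.8 with miR-146a-5p. Both scramble libraries were at nearly the same level, and its log2 fold change was 0.44 ± 0.19 (edgeR unadjusted p = 0.0815, adjusted p = 0.970), but -0.046 with the offsets. BUB3, RACGAP1, PRC1, LIN9, NCAPH and FBXO5 were the other 6, at log2 fold changes from 0.26 (NCAPH) to 1.09 (LIN9), none with an adjusted p under 0.970, and BUB3 turned from 0.44 to -0.015 with the offsets. CHR matches were present in 59 of the 97 other mitosis genes with a promoter entry (60.8%).

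Genes of the earlier cell cycle were read from the same fit. The 39 genes of G1/S and DNA replication had a median log2 fold change of -0.08, with 15 positive and 24 negative. With GC and length offsets it was -0.003, with 18 positive. Their medians were 0.05 against scramble replicate 1 and -0.19 against replicate 2. The 13 CDK inhibitors and quiescence genes had a median of 0.14, or 0.092 with the offsets. Their medians were -0.044 against scramble replicate 1 and 0.066 against replicate 2. Both miR-146a-5p libraries were above both scramble libraries for 10 of the 39 genes (25.6%) and below both for 9 (23.1%). For the 13 these numbers were 5 (38.5%) and 2 (15.4%). The shares were 38.4% and 3.57% in the other mitosis genes, and 18.0% each in all tested genes. Neither list had a gene called over 4 libraries. An unadjusted edgeR p under 0.05 was found for 2 and 1 of their genes, beside 549 of 14810 tested genes. The difference between these lists and the mitosis genes was not tested.

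Exons of 6 members overlap, in GENCODE 29, another gene that reached 100 counts: CCNA2 with EXOSC9, CDC25C with FAM53C, CENPA with SLC35F6, FOXM1 with ITFG2, KIF20A with BRD8 and CDC23, and NUSAP1 with AC087721.2. The sources used here do not give whether counting used strand. CENPA and NUSAP1 overlap theirs on the same strand, so reads could be counted for either gene there. The deposited counts of 10 members include values that are not whole, NUSAP1 among them.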

How the data were processed

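RNA-seq of 4 T24 libraries, 2 per group by the labels, was read from 1 deposited table. Tools listed in the submitters' processing notes are cutadapt (1.9.1), HISAT2 (2.0.1), HTSeq (0.6.1) and DESeq2, with the build hg19, and their roles and the annotation release are not given in the sources used here. Coordinates and transcript properties here come from GENCODE 29 and RefSeq on GRCh38 and were joined by gene. The authors deposited an estimated count per gene and library, of which 34.3% were not whole in genes above 0 in all libraries, and counts were rounded before testing. The authors also deposited TPM, a fold change as a ratio, its log2 value and p-values, per the file headers, and of these only TPM was used for levels.

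The main test was edgeR 4.0.16 (R 4.3.3), the two-sided quasi-likelihood test with TMM factors and group as the only term. Genes passed filterByExpr (minimum count 10, minimum total 15), and Benjamini-Hochberg adjustment over all tested genes used a threshold of 0.05. Scripts were tested on simulated data. Log2 ratios of CPM summarised over lists used a pseudocount of 0.5 CPM. DESeq2 1.42.0 and limma 3.58.1 were alternatives. DESeq2 was run on 3 sets of rows, and all rows of the table were taken as its value after the counts of calls had been seen. GC and length offsets were smooths fitted with mgcv 1.9.3. All 30 members are named, and of the other mitosis genes the 1 with the lowest unadjusted p per role group. The members and lists were chosen with earlier results of these data known. Depth sets the counting error only.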

Additional observations from a re-analysis of the deposited data

How the results depend on the processing

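No member was called by any alternative that kept all 4 libraries, and the calls came only with a scramble library left out. Leaving out each library in turn gave 8 to 8421 genes called in all (8421 without scramble replicate 1, 3343 without scramble replicate 2), 0 to 22 members (22 and 13) and 0 to 91 other mitosis genes (91 and 34). DESeq2 called 52 genes on all rows, 51 on genes above 0 and 68 on genes past the count filter, the last 2 added after seeing the data, with 0 members in each. The replicate block, in which same-numbered libraries are paired by number alone, called 5 genes and 0 members, and same-numbered deviations had a correlation of -0.145. The crossed pairing, also added later, called 0 genes. The members' median log2 fold change, 0.28, was 0.26 by DESeq2 on all rows or genes above 0, 0.26 by DESeq2 past the filter, 0.33 by limma-voom, 0.26 with RLE factors, 0.37 on log2(TPM + 1), 0.33 with the replicate block, 0.33 with it crossed, 0.22 with GC and length offsets, 0.23 with offsets and replicate block, and 0.17 to 0.30 with a library left out. For the other mitosis genes it was 0.10 with offsets, 0.10 with offsets and replicate block, and 0.11 to 0.37 with a library left out. Members outside the scramble range numbered 19 without miR-146a-5p replicate 1 and 20 without replicate 2. A lone miR-146a-5p library falls outside that range more easily than both together. The share of all tested genes outside it was not counted for these settings, so these 2 numbers have no background. With 1 scramble library left, the range is a single value, which most genes lie outside. The counts were then 29 without scramble replicate 1 and 30 without replicate 2. Of 14810 tested genes, 6598 lay above and 6758 below scramble replicate 2. Against scramble replicate 1 these numbers were 6037 and 6056. Of 13 alternatives, 11 members changed sign in at least 1 and 19 in none. The sign turned with offsets for CCNB1 (-0.046, and -0.016 with the replicate block) and AURKB (0.043, and 0.0431 with the replicate block), and on log2(TPM + 1) for CCNB2 (0.015) and CENPA (0.011). Among the other genes named, compared under these settings after seeing the data, it turned with offsets for WEE1 (-0.046) and BUB3 (-0.015). With a library left out, the log2 fold change ran from -0.14 to 0.14 for CCNB2, from -0.40 to 0.11 for CDC25B, from -0.40 to 0.088 for PLK1, from -0.32 to 0.22 for AURKB, from -0.037 to 1.11 for BUB1B, from -0.40 to 0.11 for CDC20, from -0.14 to 0.10 for CENPA, from -0.54 to 2.14 for KIF11, from -0.58 to 2.08 for MKI67 and from -0.067 to 0.34 for BIRC5. The cause of these moves was not tested. Leaving out a library leaves 1 in its group, which is then assumed to vary like the other group.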
